A study of Homo sapiens with 6 samples.

Results

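The 62 genes described here encode the transferases that build mucin-type O-linked sugar chains and cap glycans with sialic acid or fucose, with the chaperone of 1 of them. They are the genes whose symbol is GALNT, GALNTL, GCNT, B3GNT, ST3GAL, ST6GAL, ST6GALNAC, ST8SIA or FUT followed directly by a number, together with C1GALT1 and C1GALT1C1, and they form 62 of the 22466 genes measured. All 62 had 1 probe set each. FUT4 and GALNT4 share their only probe set with another gene and are not analysed here, and GCNT7 was left out because RefSeq lists it as a pseudogene. The genes formerly called FUT10 and FUT11 carry the symbols POFUT3 and POFUT4 in the annotation, do not match the rule and are not counted. FUT3, FUT5 and FUT6 are near-identical copies whose probes cannot be assumed to separate them.

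The study measured transcripts on 6 single-colour arrays of SKOV3, a long-used cell line from a human ovarian carcinoma, to ask which genes depend on SND1, a nuclease and tudor domain protein of transcription and RNA turnover. In 3 arrays the RNA came from untreated cells that stably carry the empty pLKO vector, and in 3 from untreated cells that stably express hairpin #2 against SND1, with no further genetic change in the labels of either group. A single hairpin was used, and the labels do not say whether either stable line is 1 clone or whether arrays of a group stand for separate cultures, so each p-value reflects just the array-to-array spread, which may be technical. The title of the first knockdown array carries an extra number whose meaning is not given.

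Mucin-type O-glycosylation starts in the Golgi when a GALNT enzyme attaches N-acetylgalactosamine to serine or threonine. C1GALT1, which needs the chaperone encoded by C1GALT1C1, adds galactose to give the core 1 structure, GCNT enzymes add branches, and B3GNT enzymes lengthen the chain. Sialyltransferases and fucosyltransferases then add the outermost sugars, which form blood group, Lewis and sialylated antigens. In carcinoma cells, shortened or heavily sialylated chains on mucins are well known surface changes.

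Values are the deposited log2 levels per probe set. Each difference is SND1 knockdown minus vector control, with its standard error (SE) from limma's moderated test and a p adjusted by Benjamini-Hochberg over all 22466 genes, and "rose" or "fell" means an adjusted p under 0.05. The level 6.28 was the highest mean of 23 background control probe sets, whose lowest mean was 2.38 and median 3.11. It is a strict level: the median of all gene means in controls was 5.07. A gene under 6.28 may still be expressed. For a gene whose dimmer group did not exceed 6.28, the fold is a lower bound ("at least") taken against that level. A gene that exceeded it in neither group is called within the background range and has a log2 difference but no fold. Levels of different genes are not set against each other, because each probe set has its own brightness. In bulk RNA, fewer cells expressing a gene and less RNA per cell cannot be told apart.

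SND1 itself measured 8.83, 8.60 and 8.80 on the log2 scale in the 3 control arrays and 5.88, 5.70 and 5.99 in the 3 knockdown arrays, at least 5.51-fold lower (difference -2.89 ± 0.09 SE, adjusted p = 1.3e-06). Its probe set also covers SND1-IT1, a transcript from within the gene. Pearson's r between arrays, taken across genes that are not independent replicates, was 0.9981 to 0.9987 inside a group and 0.9844 to 0.9861 between the groups. Of 8 measured ovarian carcinoma line markers, 7 lay above the background level in at least 1 group, among them PAX8 at 12.30 ± 0.03 (SD, n = 3) in controls, which did not pass the threshold, while WT1 lay within the background range. Of these 8 markers 3 were higher and 4 lower after knockdown, 87.5% past the threshold against 31.9% of all genes. The keratin genes split, with KRT8 and KRT18 lower by 2.61-fold and 1.44-fold and KRT7 and KRT19 higher by 1.17-fold and 1.2-fold. MSLN was higher by 1.66-fold and MUC16 at least 1.19-fold lower. The mean log2 level of the 8 ran from 10.26 to 10.38 over the control arrays and from 9.93 to 9.98 over the knockdown arrays, and the part of this shift in the results below was not tested. Of 9 measured markers of leukocytes, endothelium and fibroblasts, 8 stayed in that range on average in either group, including PTPRC, PECAM1 and PDGFRB. The mean log2 level of these 9 ran from 4.46 to 4.50 over the control arrays and from 4.39 to 4.50 over the knockdown arrays. The exception was CD68, a lysosomal protein gene not limited to leukocytes, which differed by -0.01. COL1A1 was the only marker of the 9 past the threshold (11.1%, against 31.9% of all genes). It differed by -0.44 within the background range, and its part in the results below was not tested.

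Of the 62 glycosylation genes 8 rose and 16 fell after SND1 knockdown, and 38 did not pass the threshold. That is 38.7% called, against 31.9% of all genes, with 15.9% of all genes higher and 16.1% lower. With array medians aligned instead, 9 of the 62 were higher and 11 lower, and 4621 of all genes were higher and 2843 lower, so the balance of directions depends on the scaling. The median log2 difference was -0.03 over the 62 genes and 0.003 over all genes. A difference of at least 0.5 in size was found for 12 of the called genes, 7 higher and 5 lower, which is 19.4% of the 62 against 12.8% of all genes. The knockdown and control arrays did not overlap for 31 of the 62, with 10 higher and 21 lower, where 43.6% of all genes had no overlap. For 45 of the 62 both group means were within the background range, as for 13339 of all 22466 genes. Of the 45, 3 rose and 9 fell, 26.7% called. The share called among the 13339 was not computed, so this split is not read as a trait of the set. Of the 16 with a mean over all 6 arrays above the background level, 5 rose and 6 fell. That is 68.8% called, against 56.1% of all genes with such a mean. Genes of the set thus moved in both directions.

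**Figure D1:**
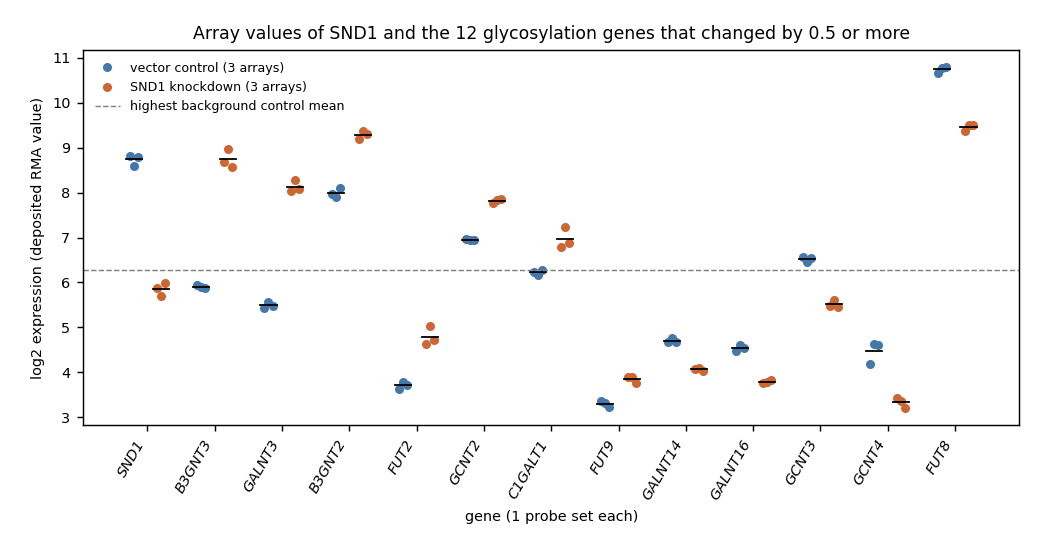
Log2 expression of SND1 and the 12 glycosylation genes past the threshold with a difference of at least 0.5 (horizontal axis: gene). Points are the 3 control (blue) and 3 knockdown (orange) arrays, black bars the group means, and the dashed line the highest background control mean of 6.28. In each of the genes shown all knockdown arrays lie on 1 side of all control arrays, and 7 of the 12 have at least 1 group mean above the dashed line.

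The promoters of 3 genes that rose, GALNT3, FUT2 and B3GNT3, are shown. They have the largest differences among the rising genes with 1 annotated start in the promoter table used. SNAI2 and ZEB1, whose proteins are repressors that bind the E-box CAGGTG, read as CACCTG on the other strand, fell in the knockdown arrays. The part of SNAI2 and ZEB1 in the rises was not tested. SNAI2 was at least 7.07-fold lower (adjusted p = 9.7e-06) and ZEB1 fell 2.39-fold (adjusted p = 4.4e-06). Each line gives the 250 bases before the annotated start in the gene's own direction, from RefSeq on GRCh38.p14, with E-boxes in capitals. Here E-box means CAGGTG or CACCTG, and no other form was searched for. The stretches are chr2:165794248-165794497 on the minus strand for GALNT3, chr19:48695721-48695970 on the plus strand for FUT2 and chr19:17794888-17795137 on the plus strand for B3GNT3.
GALNT3: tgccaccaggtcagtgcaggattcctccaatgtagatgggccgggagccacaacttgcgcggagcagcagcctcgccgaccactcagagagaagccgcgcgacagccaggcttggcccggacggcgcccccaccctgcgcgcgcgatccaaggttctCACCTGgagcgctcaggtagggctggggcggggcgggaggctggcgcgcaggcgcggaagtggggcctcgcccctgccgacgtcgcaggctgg
FUT2: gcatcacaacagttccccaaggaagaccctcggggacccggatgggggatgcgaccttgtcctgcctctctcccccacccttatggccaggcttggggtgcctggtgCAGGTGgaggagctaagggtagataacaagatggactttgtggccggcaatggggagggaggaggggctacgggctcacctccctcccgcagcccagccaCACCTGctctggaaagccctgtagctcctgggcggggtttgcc
B3GNT3: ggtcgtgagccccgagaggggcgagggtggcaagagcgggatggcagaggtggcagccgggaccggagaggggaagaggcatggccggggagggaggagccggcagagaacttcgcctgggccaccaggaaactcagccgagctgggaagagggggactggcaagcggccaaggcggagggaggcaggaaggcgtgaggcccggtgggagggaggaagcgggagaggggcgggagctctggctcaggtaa
GALNT3 holds an E-box whose first base lies at -93 from the start and another at 5 after it, outside the printed stretch. FUT2 holds E-boxes at -143 and -43, and the B3GNT3 window holds none. Among the rising genes not shown, a GCNT2 window holds an E-box at -186. The windows of B3GNT2, C1GALT1, FUT9 and ST3GAL6 hold none. Over windows of 300 bases, from 250 before to 50 after each annotated start, 20.6% of 35116 windows in the table hold CAGGTG on either strand. The motif was found in 3 of 15 windows of the genes that rose (20%), in 4 of 24 windows of those that fell (16.7%) and in 9 of 37 windows of those not called (24.3%). Some genes have several windows, and 46 of the 62 have at least 1. These shares lie near that of all windows, and a match is a description of the letters only.

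Among the enzymes that start O-glycans, more genes fell than rose, but GALNT5, GALNT12, GALNT14 and GALNT16 fell within the background range. Of the 17 GALNT genes 1 rose and 7 fell (median difference -0.10), or 2 and 5 with array medians aligned. Neither of the 2 GALNTL genes passed. That is 42.1% called of the 19 genes, against 31.9% of all genes. GALNT3, which glycosylates the hormone FGF23 and is prominent in epithelia, measured 5.43, 5.57 and 5.48 in controls and 8.03, 8.29 and 8.07 after knockdown. All 3 knockdown arrays lay above the background level and all 3 controls below it, so the gene was at least 3.6-fold higher (2.64 ± 0.08 SE, adjusted p = 1.1e-06). Its 10 expressed neighbours on each side along chromosome 2 had a median difference of 0.08, with 9 higher and 4 lower of 20.

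GALNT16 measured 4.47, 4.60 and 4.53 in controls and 3.77, 3.77 and 3.82 after knockdown, a fall of -0.75 ± 0.05 SE (adjusted p = 4.4e-05). GALNT14, whose enzyme glycosylates death receptors, measured 4.68, 4.76 and 4.67 against 4.07, 4.09 and 4.03 (-0.64 ± 0.05 SE, adjusted p = 5.8e-05). The groups did not overlap for either gene, and both lay within the background range throughout. GALNT16 lies on chromosome 14, where the 20 expressed neighbours of the gene had a median of -0.26 and all 474 other expressed genes one of -0.27, whereas the neighbours of GALNT14 had a median of 0.13. The part of the chromosome in the fall of GALNT16 was not tested.

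The broadly expressed starter genes changed less. GALNT7, an enzyme that prefers peptides already carrying a sugar, fell 1.39-fold from 10.31 ± 0.15 to 9.83 ± 0.04 (SD, n = 3 each; difference -0.48 ± 0.08 SE, adjusted p = 0.0033). GALNT1, a housekeeping member of the family, fell 1.24-fold from 12.94 ± 0.13 to 12.63 ± 0.03 (SD, n = 3 each; adjusted p = 0.013), and GALNT10, with the same preference for glycosylated peptides as GALNT7, fell 1.16-fold (adjusted p = 0.02). GALNT2, the other housekeeping starter, did not pass, at 10.19 ± 0.08 and 10.16 ± 0.04 (SD, n = 3 each), with a 95% interval of the difference from -0.17 to 0.10. GALNT12 fell by 0.37 (adjusted p = 0.0059) and GALNT5 by 0.20 (adjusted p = 0.047), both within the background range. The call of GALNT10 ended without control array 2, control array 3 or knockdown array 3 (adjusted p = 0.064, 0.069 and 0.051). That of GALNT5 ended without any 1 of 5 arrays, the exception being the first control array (adjusted p of 0.085 to 0.15 without the others). The 10 remaining GALNT and GALNTL genes ranged from -0.14 for GALNT11, which acts on Notch1, to 0.10 for GALNT15.

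**Figure D2:**
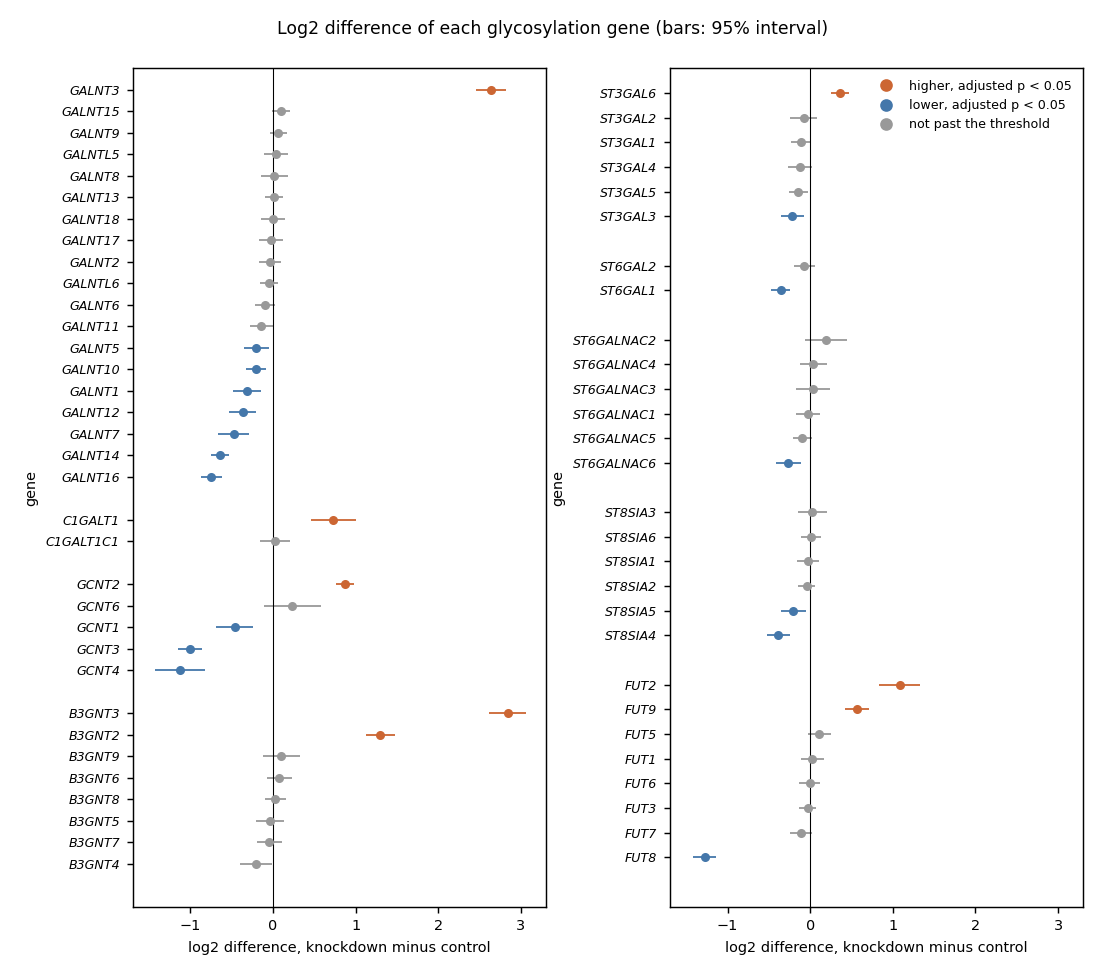
Log2 difference (SND1 knockdown minus vector control, horizontal axis) of each of the 62 genes by family (vertical axis), with its 95% interval. Orange genes rose and blue genes fell at an adjusted p under 0.05, and grey genes did not pass. GALNT3 and B3GNT3 stand farthest to the right at 2.64 and 2.84, and FUT8 and GCNT4 farthest to the left at -1.28 and -1.13.

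The core 1 enzyme gene rose while that of its chaperone did not pass. C1GALT1 measured 6.24, 6.17 and 6.28 in controls and 6.78, 7.23 and 6.87 after knockdown. All knockdown arrays were higher than all controls, the second by the most, and the gene was at least 1.6-fold higher (0.73 ± 0.12 SE, adjusted p = 0.0024). C1GALT1C1, on the X chromosome, lay at 6.03 ± 0.10 and 6.05 ± 0.11 (SD, n = 3 each), within the background range, with a 95% interval of the difference from -0.16 to 0.20.

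Branching enzymes split, with 1 of 5 GCNT genes higher and 3 lower (median difference -0.47), 80% called against 31.9% of all genes. GCNT2, which makes the branched I antigen on lengthened chains, measured 6.98, 6.94 and 6.95 in controls and 7.77, 7.84 and 7.85 after knockdown, a 1.82-fold rise with no overlap (0.87 ± 0.05 SE, adjusted p = 1.3e-05). The genes of the core 2 enzymes fell. GCNT3, the mucin-type enzyme that also makes core 4, measured 6.57, 6.45 and 6.54 against 5.48, 5.61 and 5.45, at least 1.18-fold lower (-1.004 ± 0.06 SE, adjusted p = 2.6e-05).

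GCNT4, another core 2 enzyme gene, measured 4.17, 4.62 and 4.60 in controls and 3.43, 3.36 and 3.21 after knockdown (-1.13 ± 0.13 SE, adjusted p = 0.00046). The groups did not overlap, the first control array was the lowest of its group, and all values lay within the background range. GCNT1, the widely expressed core 2 enzyme, fell 1.38-fold from 9.64 ± 0.20 to 9.17 ± 0.02 (SD, n = 3 each; adjusted p = 0.0081). GCNT6, a symbol with no entry in the RefSeq table used, measured 4.51, 4.71 and 4.72 against 5.01, 4.54 and 5.10 and did not pass (adjusted p = 0.3). Its second knockdown array lay among the controls, and without that array the difference was 0.40 (adjusted p = 0.014). Leaving out the array nearest the controls enlarges a difference, so that value is no evidence of a rise. Both group means of GCNT6 lay within the background range. The neighbours of GCNT3 on chromosome 15 had a median difference of -0.19, with 10 of 20 lower, and those of GCNT4 on chromosome 5 a median of 0.24.

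Among the 8 B3GNT genes, 2 rose and none fell, 25% called against 31.9% of all genes. B3GNT3, which lengthens core 1 chains and forms part of selectin ligands, measured 5.94, 5.90 and 5.88 in controls and 8.69, 8.97 and 8.58 after knockdown. The controls lay just under the background level and the knockdown arrays well above it, so the gene was at least 5.52-fold higher (2.84 ± 0.10 SE, adjusted p = 1.7e-06). Its 20 neighbours on chromosome 19 had a median of -0.07. B3GNT2, the main enzyme of poly-N-acetyllactosamine chains, measured 7.97, 7.90 and 8.11 in controls and 9.18, 9.38 and 9.31 after knockdown. It rose 2.46-fold with no overlap (1.30 ± 0.08 SE, adjusted p = 1.9e-05), and its neighbours on chromosome 2 had a median of 0.18.

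The other 6 B3GNT genes lay between -0.21 for B3GNT4 and 0.10 for B3GNT9. B3GNT5, which starts lacto-series glycolipids, measured 7.63 ± 0.04 and 7.59 ± 0.12 (SD, n = 3 each), with a 95% interval from -0.21 to 0.13. B3GNT6, the core 3 enzyme of colon mucins, had both group means within the background range, with a difference of 0.08. B3GNT4, within the background range, did not pass (adjusted p = 0.11), but without the first knockdown array its difference of -0.29 did (adjusted p = 0.015). That array lay among the controls, so leaving it out enlarges the difference and is no evidence of a fall.

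**Figure D3:**
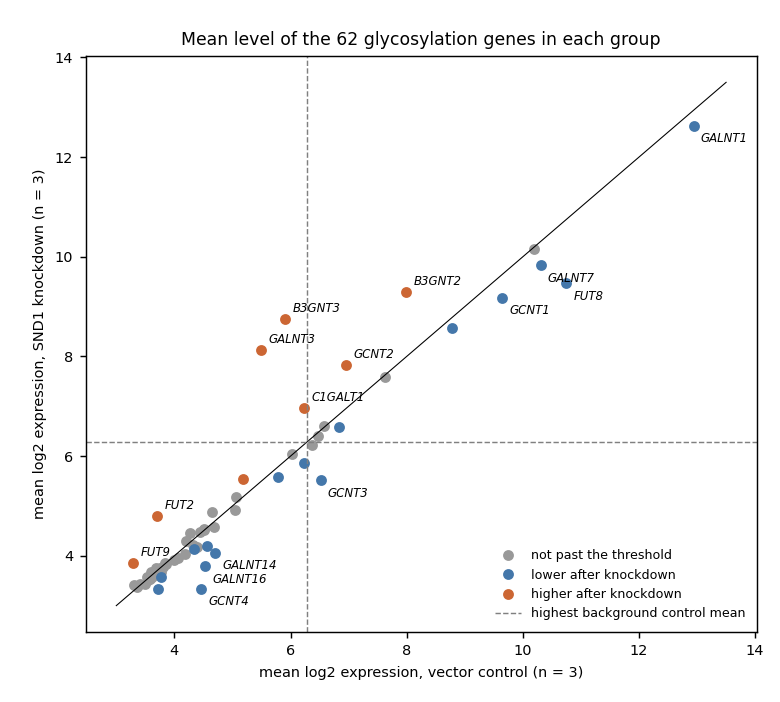
Mean log2 expression of each of the 62 genes in vector control arrays (horizontal axis, n = 3) and SND1 knockdown arrays (vertical axis, n = 3). The solid line marks equal levels and the dashed lines the highest background control mean of 6.28. GALNT3, B3GNT3 and C1GALT1 cross that level upward and GCNT3 and, by a smaller step, GALNT11 cross it downward, while for 45 genes both means lie within the background range.

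Differences were small among sialyltransferase genes. Of 20, 1 rose and 5 fell, 30% called and near the 31.9% of all genes, or 1 rose and 2 fell with array medians aligned. The differences had a median of -0.08 and a range from -0.39 to 0.36, and 17 had both group means within the background range. No member of these families reached a difference of 0.5 in size.

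In the ST3GAL family, whose enzymes cap galactose, ST3GAL6 rose by 0.36 ± 0.05 SE (adjusted p = 0.00095). Its arrays read 5.22, 5.15 and 5.17 in controls and 5.54, 5.50 and 5.58 after knockdown, without overlap but within the background range. ST3GAL3, which with ST3GAL6 contributes to sialyl Lewis structures, fell by 0.22 (adjusted p = 0.027), but this call ended without the first or second control array or the first or second knockdown array (adjusted p of 0.069 to 0.09). ST3GAL1, the enzyme that sialylates core 1, differed by -0.11 with a 95% interval from -0.23 to 0.004, and ST3GAL5, which makes the ganglioside GM3, by -0.15 (adjusted p = 0.061). ST3GAL2 and ST3GAL4 differed by -0.08 and -0.12 and did not pass. Of the 6 ST3GAL genes, 5 had both group means within the background range, all but ST3GAL2.

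ST6GAL1, the enzyme that caps N-glycans with sialic acid and is often high in carcinomas, lay within the background range at 4.55, 4.50 and 4.61 in controls and 4.23, 4.16 and 4.202 after knockdown. It fell by 0.36 (adjusted p = 0.0013) with no overlap, and ST6GAL2 differed by -0.07. In the ST6GALNAC family, ST6GALNAC6, a ganglioside enzyme, fell 1.2-fold from 6.84 ± 0.05 to 6.58 ± 0.09 (SD, n = 3 each; adjusted p = 0.016), and this call ended without the first control array (adjusted p = 0.058). ST6GALNAC1, which makes the tumour antigen sialyl-Tn, lay within the background range with a difference of -0.02 (95% interval -0.17 to 0.12). ST6GALNAC4, which adds a further sialic acid to sialylated core 1, measured 6.57 ± 0.11 and 6.61 ± 0.08 (SD, n = 3 each). ST6GALNAC2 differed by 0.19, the largest increase among the remaining members of that family, and did not pass (adjusted p = 0.25).

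All 6 ST8SIA genes, which link sialic acids to each other, lay within the background range. ST8SIA4, which makes polysialic acid on the adhesion molecule NCAM, measured 3.72, 3.81 and 3.62 in controls and 3.29, 3.34 and 3.37 after knockdown, a fall of 0.39 (adjusted p = 0.0021). ST8SIA5, a ganglioside enzyme gene, fell by 0.21 (adjusted p = 0.045), and this call ended when any 1 array other than the first control was left out (adjusted p of 0.055 to 0.13). ST8SIA2, the other polysialic acid enzyme, and ST8SIA1, which makes the ganglioside GD3, differed by -0.04 and -0.03.

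Of the 8 fucosyltransferase genes 2 rose and 1 fell, 37.5% called and near the 31.9% of all genes. FUT8, the enzyme that attaches fucose to the core of N-glycans, measured 10.66, 10.78 and 10.79 in controls and 9.38, 9.50 and 9.52 after knockdown. It fell 2.43-fold, the largest decrease among the 62 genes by fitted log2 difference (-1.28 ± 0.06 SE, adjusted p = 7.3e-06). FUT8 lies on chromosome 14, where 11 of its 20 expressed neighbours were also lower (median -0.23) and all 473 other expressed genes had a median of -0.27. Their part in the result was not tested.

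FUT2, which makes the H antigen in secretory epithelia, measured 3.63, 3.78 and 3.71 in controls and 4.62, 5.02 and 4.72 after knockdown (1.09 ± 0.11 SE, adjusted p = 0.00022). FUT9, which makes Lewis x, measured 3.35, 3.31 and 3.22 against 3.90, 3.90 and 3.77 (0.56 ± 0.06 SE, adjusted p = 0.00034). Neither gene's groups overlapped, and both stayed within the background range in all 6 arrays. FUT1, the H enzyme of red cells, differed by 0.03 with a 95% interval from -0.11 to 0.16, while the Lewis enzyme genes FUT3, FUT5, FUT6 and FUT7 lay between -0.11 and 0.11 and did not pass. The neighbours of FUT2 on chromosome 19 had a median of -0.26, with 11 of 20 lower.

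Within the knockdown group, the second array was the highest for 6 of the 8 genes that rose and the first for none. Without the second array, all 8 genes still passed the threshold. Within the controls, the first array was the lowest for 10 of the 16 genes that fell.

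Genes that act around these transferases were read from the same fit, in lists drawn up with earlier results of these data known. Of 13 measured genes for the supply of sugar nucleotides 5 rose and 3 fell (median 0.12), 61.5% called against 31.9% of all genes. Of all genes with a mean above the background level 56.1% were called, and 10 of these 13 exceeded it in at least 1 group. GNE, the rate-limiting enzyme of sialic acid synthesis, rose 2.23-fold (1.16 ± 0.08 SE, adjusted p = 4.1e-05), and SLC35A3, a Golgi transporter of UDP-N-acetylglucosamine, rose 1.4-fold. NANS, which acts after GNE in the same route, fell at least 1.29-fold (difference -0.84, adjusted p = 1.4e-05), and UAP1, which makes UDP-N-acetylglucosamine, fell 2.23-fold.

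Of 18 transferases for other chain steps 7 rose and 3 fell (median 0.04), 55.6% called against 31.9% of all genes. The background level was exceeded in at least 1 group by 10 of the 18. ABO, the blood group transferase that acts on the H antigen, was at least 1.23-fold higher (difference 1.55, adjusted p = 4.3e-06). B4GALT5, a lactosylceramide enzyme, rose 2.03-fold and B3GALT5, which makes type 1 chains, at least 1.12-fold (difference 0.96), whereas B4GALNT4 fell at least 1.53-fold. In the N-glycan branching list 6 of 13 rose and 4 fell (median -0.01), 76.9% called against 31.9% of all genes. Here 7 of the 13 exceeded the background level in at least 1 group. MGAT4A and MGAT4B, which add the same branch, rose 3.11-fold and 1.99-fold (adjusted p = 1.3e-05 and 1.6e-05), and the mannosidase gene MAN1A2 rose 1.65-fold, while MGAT5B, a branching enzyme of brain, fell by 0.93 (log2), within the background range.

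Of 22 measured mucins and mucin-like carriers 5 rose and 4 fell (median 0.02), 40.9% called against 31.9% of all genes. MUC1, a transmembrane mucin of epithelia, rose 2.83-fold, from 7.21 to 8.71 (adjusted p = 2.5e-05). MUC5AC, a secreted gel-forming mucin, was at least 1.44-fold higher (difference 1.53, adjusted p = 2.8e-06), and its other probe set differed by 2.42. MUC16, the large membrane mucin used as an ovarian tumour marker, was at least 1.19-fold lower (difference -2.001, adjusted p = 3.1e-06), from 6.53 to 4.53. CD34 fell by 0.62 within the background range.

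**Figure D4:**
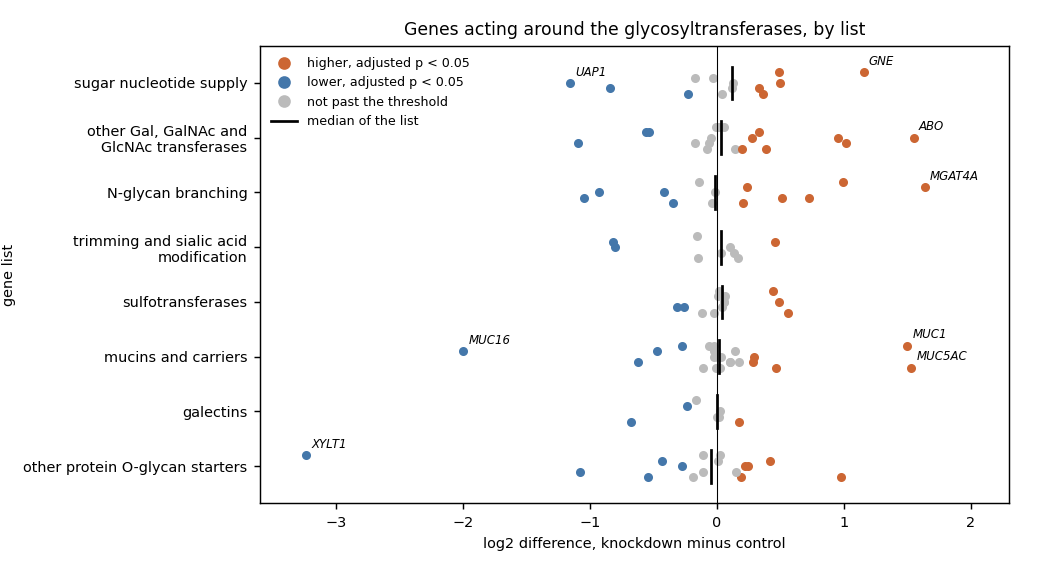
Log2 difference (SND1 knockdown minus vector control, horizontal axis) of the measured genes of 8 lists (vertical axis). The list labelled other protein O-glycan starters includes MFNG and RFNG, which act on a sugar already attached. Orange genes rose, blue genes fell at an adjusted p under 0.05, grey genes did not pass, and the black bar is the list's median. The medians lie between -0.05 and 0.12, with MUC1, MUC5AC, ABO and MGAT4A farthest right and XYLT1 and MUC16 farthest left.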

How the data were processed

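The authors deposited a log2 level for each probe set on 6 arrays, made with RMA per the submitters' processing notes, which give no version. Its variant and the genome build of the array are not given in the sources used here. Some values exceed a scanner's log2 ceiling, so fold sizes depend on a scale that is not the scanner's. No renormalization, filter or covariate was applied. The platform annotation names a single gene for 23781 of 70523 probe sets, several for 1543 and none for 45199. Symbols were taken through Entrez identifiers, the brightest probe set per gene was kept and SND1 was added, which gave 22466 genes. All differences were fitted with limma 3.58.1 (lmFit and eBayes) in R 4.3.3, and adjusted p-values are Benjamini-Hochberg over all genes.

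The members and lists were chosen with earlier results of these data known. Array values are given for SND1 and for members past the threshold with a difference of at least 0.5, and for some further members chosen after their values were seen. Of each other list up to 4 genes with the smallest adjusted p are named. Scanner files were not used here, so scan batches were not examined. Having only 3 arrays a group limits the precision. The neighbour medians (10 genes on each side with a mean above the median of all values, 4.16) and the 6.28 background level were defined after the data were seen.

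The fit was tested on simulated data, 5 sets of 22466 genes of which 200 were altered. It called 68.8% of genes altered by 0.5 (log2) and 95.6% of those altered by 1, and 4.45% of its calls were false. The adjusted p depends on how many genes change, and 31.9% were called in the data. These simulated rates therefore need not hold for the data. Alternatives were renewed quantile normalization, median centring, a filter on dim genes, the mean of a gene's probe sets, trended robust eBayes, a replicate block, leaving out each array and raising levels to 6.28.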

Additional observations from a re-analysis of the deposited data

How the results depend on the processing

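The calls of 19 of the 24 glycosylation genes past the threshold held under all 12 alternatives that refit the arrays, those that could test the gene. The exceptions were GALNT10, GALNT5, ST3GAL3, ST6GALNAC6 and ST8SIA5, with differences of -0.26 to -0.20 in the report. Under median centring, which moves the median difference of all genes to 0.06, all 5 missed the threshold (adjusted p = 0.068, 0.13, 0.088, 0.056 and 0.11). After renewed quantile normalization ST3GAL3 and ST8SIA5 missed it (0.065 and 0.06). Among the 38 genes not called, 5 passed under some alternative, including FUT5 after quantile normalization (0.049), GALNT15 under median centring (0.04) and GALNT11 without the third knockdown array (0.041). The counts of genes higher and lower stayed within 1.5 times of 8 and 16, and SND1 kept its call, under each alternative run on them. The filter on dim genes left 36 of the 62 genes to test. Among the lists only the galectin count moved by more than 1.5 times, between 1 and 3 genes when an array was left out, a check on lists that was added after the data were seen. The replicate numbers showed no sign of pairing: same-numbered arrays' deviations from their group means correlated at -0.02, -0.04 and -0.06. Differently numbered arrays gave -0.03 to 0.07. Such values cannot tell whether same-numbered arrays were handled together, and the labels do not say. With the replicate block 8 genes were higher and 12 lower, and GALNT10, GALNT5, ST3GAL3 and ST8SIA5 were not called (adjusted p = 0.058, 0.085, 0.079 and 0.091). With levels raised to 6.28, 11 of the 24 called genes have no value, because all arrays lie at that level, 9 kept their call and 4 of the rest, GALNT1, GALNT12, GCNT1 and ST6GALNAC6, did not (adjusted p = 0.073, 0.39, 0.072 and 0.065). GALNT1, GCNT1 and ST6GALNAC6 lie above that level on all 6 arrays and kept their differences of -0.31, -0.47 and -0.26. The cause of these lost calls was not tested. For the 45 genes within the background range, its height limits what can be said.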

Other observations

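Lists farther from the 62 genes held the following values. Of 16 measured genes that act in other kinds of protein O-glycosylation 5 rose and 5 fell (median -0.05), 62.5% called against 31.9% of all genes. Most start a chain, but MFNG and RFNG, which did not pass, act on a sugar already attached. Of the 16, 12 exceeded the background level in at least 1 group, and 56.1% of all genes with a mean above it were called. XYLT1, which starts proteoglycan chains, was at least 2.41-fold lower (log2 difference -3.24, limma adjusted p = 6.5e-07), POGLUT3, which glucosylates Notch-type repeats, fell 2.12-fold, TMTC1, which mannosylates cadherins, was at least 1.17-fold higher (difference 0.98) and TMTC4 rose 1.33-fold. Of 7 measured galectins, lectins that bind galactose-bearing glycans, 1 rose and 2 fell (42.9% called, against 31.9% of all genes). LGALS1 fell 1.6-fold and LGALS3 1.18-fold, and LGALS8 rose 1.13-fold, but only 1 galectin passed without control array 2 or without control array 3.

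Of 13 sulfotransferase genes 3 rose and 2 fell (median 0.04), 38.5% called against 31.9% of all genes. GAL3ST2 was at least 1.28-fold higher and CHST2, which sulfates N-acetylglucosamine, rose 1.41-fold, GAL3ST1 rose by 0.44 within the background range and CHST7 fell at least 1.09-fold. Of 9 measured trimming and sialic acid modifying enzymes 1 rose and 2 fell (median 0.03), 33.3% called and near the 31.9% of all genes. The called genes all lay within the background range. SIAE, a sialic acid esterase gene, fell by 0.82 and NPL, which breaks down free sialic acid, by 0.81. The sialidase gene NEU1 rose by 0.46. Its 8 probe sets lay between 0.45 and 0.46, and whether they are separate measurements was not checked.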
